A study of Mus musculus with 12 samples.

Results

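The microRNA silencing machinery was read by 36 of the 45101 probe sets on each array, covering 10 of the 18193 genes named on the array: the GW182 scaffolds Tnrc6a, Tnrc6b and Tnrc6c, the Argonautes Ago1, Ago2, Ago3 and Ago4, and the processing factors Drosha, Dgcr8 and Dicer1. A probe set is a group of short oligonucleotides that together give 1 intensity for a transcript. All probe sets that the platform annotation gives to exactly 1 of these symbols were taken: 9 for Tnrc6a, 5 for Ago3, 4 each for Ago2 and Dgcr8, 3 each for Tnrc6b, Tnrc6c and Drosha, 2 each for Ago4 and Dicer1, and 1 for Ago1. The group was picked because a probe set of Tnrc6a stood near the top of the ranking between genotypes, so the genotype values of the 10 genes are a description of these arrays and carry no test.

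The 12 arrays hold RNA of primary mammary epithelial cells of FVB/N females, FVB/N being an inbred mouse strain, with 6 biological replicates per genotype. Control mice carried the MMTV-rtTA transgene, in which a mammary tumour virus promoter drives a doxycycline-responsive activator. The p190B mice (MMTV-rtTA/TetO-p190B) carried in addition a tetracycline operator construct for p190B and luciferase, and p190B is the GTPase-activating protein encoded by Arhgap5. Both genotypes received doxycycline in the chow (2 g/kg) for 7 days, starting when the mice were 5 weeks old, and cells were isolated at 6 weeks, so the activator and the drug are shared by all 12 arrays. The labels do not say whether each replicate was a single animal or a pool.

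MicroRNAs are cut from hairpin precursors first by Drosha with its partner Dgcr8 in the nucleus and then by Dicer1 in the cytoplasm. The product is loaded into an Argonaute, and a GW182 protein bound to that Argonaute recruits deadenylases, so that the targeted messenger RNA is shortened, decapped and repressed. In the mammary gland this pathway is known to act in stem and progenitor cells and in ductal growth.

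Some values of the whole series bear on what follows. Arhgap5 was read by 4 probe sets, and 0 of them passed the limma test between genotypes. Their log2 differences lay on both sides of 0, from −0.32 to 0.41 (smallest limma adjusted p = 0.258). The genotype labels were thus not borne out by their own gene. All 5 luminal and all 5 basal epithelial markers lay above the filter on dim probe sets, and so did all 5 fibroblast, all 5 macrophage, all 5 endothelial and all 5 skeletal muscle markers, 8 of 8 T and NK cell markers, 5 of 6 B cell markers and 3 of 4 adipocyte markers. The mean log2 level of the T, NK and B cell markers lay between 6.79 and 9.75 in control and between 6.41 and 9.84 in p190B. The log2 ratio of the 3′ to the 5′ control probe set of Actb, a sign of RNA quality, ran from 0.25 to 0.35 in control and from 0.31 to 0.59 in p190B, with p190B replicates 1 and 3 at 0.48 and 0.59. That of Gapdh ran from −0.52 to −0.47 in control and from −0.48 to −0.32 in p190B. Only p190B replicate 5, at −0.48, lay within the control range of the Gapdh ratio. A fit with that ratio as a covariate therefore cannot separate it well from genotype. On Actb, only control replicate 2, at 0.35, reached the p190B range. The other control arrays, at 0.25 to 0.29, lay below all p190B arrays, so a fit with the Actb ratio is limited in the same way.

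Among the 10 genes, 1 Tnrc6a probe set separated the genotypes and the rest did not. Tnrc6a encodes the GW182 scaffold TNRC6A. Probe set 1439244_a_at had a lowest, median and highest control value of 5518, 6005 and 6470 intensity units, and in p190B of 7260, 7736 and 9000. All 6 p190B arrays lay above the highest control array, with p190B replicate 1 at the top and replicate 4 at the bottom of their group. The means were 7889.9 ± 682 on the p190B and 6017 ± 362 on the control arrays (SD, n = 6 per genotype), a log2 difference of 0.39 (SE 0.06) or a 1.31-fold higher level. These are the values for which Tnrc6a was chosen. In bulk preparations such as these, a change in how many cells of a type are present and a change in RNA per cell cannot be told apart.

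The other Tnrc6a probe sets differed from this one and from each other. Probe set 1434898_at averaged 1302 ± 138 on the p190B and 1088 ± 158 on the control arrays (SD, n = 6 per genotype), a log2 difference of 0.26 (SE 0.10). Its ranges overlapped, from 869 to 1333 in control and from 1139 to 1529 in p190B, and 2 p190B arrays lay above all control arrays. Differences of smaller size were given by 4 others: 0.09 (SE 0.08) for 1425036_a_at, −0.05 (SE 0.06) for 1434899_s_at, −0.02 (SE 0.09) for 1455141_at and −0.10 (SE 0.09) for 1455128_x_at. On all 4 of them the control and p190B ranges overlapped. Probe set 1457295_at spanned 48.4 to 190.3 in control and 96.6 to 171.5 in p190B, a difference of −0.01 (SE 0.25).

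The contrast inside Tnrc6a also appeared between probe sets that the annotation ties to the same design sequence. Probe sets 1439244_a_at, 1439245_at and 1439246_x_at share a design sequence. The last of these ran from 464 to 766 in control and from 451 to 649 in p190B, a difference of −0.10 (SE 0.12), on the other side of 0 from the 0.39 of the first. Probe set 1439245_at was dim, from 11.2 to 74.1 in control and from 8.5 to 94.1 in p190B, below the level at which probe sets were tested. Probe sets 1434898_at, 1434899_s_at and 1455141_at share another design sequence, and their differences were 0.26, −0.05 and −0.02. Which exons or transcript ends each probe set reads was not analysed here, and probe sets named _s_at or _x_at may also read other transcripts.

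Within each array, the log2 ratio of 1439244_a_at to the mean of the 7 other tested Tnrc6a probe sets ran from 1.66 to 2.18 in control and from 2.21 to 2.43 in p190B. It averaged 1.92 ± 0.20 on the control and 2.29 ± 0.09 on the p190B arrays (SD, n = 6 per genotype). The mean of those 7 probe sets themselves was 10.64 ± 0.18 in control and 10.65 ± 0.05 in p190B on the log2 scale. Its numerator is the probe set for which Tnrc6a was chosen, so the ratio describes these arrays and adds no support. The difference of 1439244_a_at was 0.32 without p190B replicates 1 and 3, 0.29 with the Actb ratio as a covariate and 0.28 with the Gapdh ratio.

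**Figure D1:**
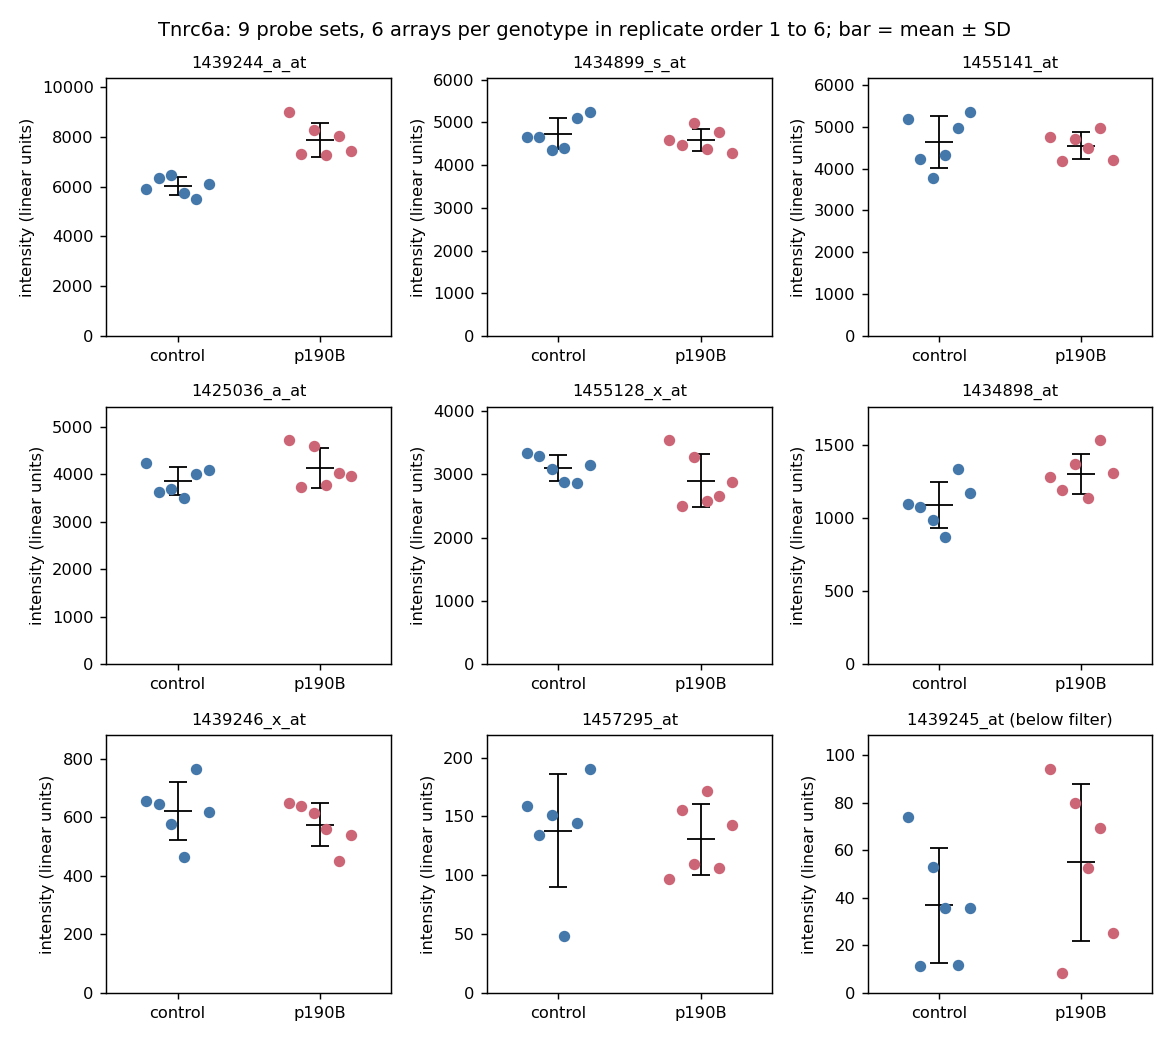
Intensity (linear units, each panel with its own axis from 0) of the 9 Tnrc6a probe sets on 6 control and 6 p190B arrays. Points are arrays in replicate order and bars are the mean ± SD. Only on 1439244_a_at do the p190B arrays, from 7260 to 9000, all lie above the control arrays, from 5518 to 6470.

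Tnrc6b and Tnrc6c encode the other GW182 paralogues, which bridge Argonaute to the deadenylase complexes in the same way. The Tnrc6b probe set 1460024_at ran from 250 through a median of 302 to 342 in control and from 265 through a median of 376 to 452 in p190B. On it 5 of 6 p190B arrays lay above all control arrays, replicate 5 being the exception, and the log2 difference was 0.30 (SE 0.13). The difference was 0.23 without p190B replicates 1 and 3, 0.24 with the Actb ratio as a covariate and 0.01 with the Gapdh ratio. The other Tnrc6b probe sets gave −0.02 (SE 0.10) for 1436982_at, with means of 2253 ± 223 on the control and 2230.2 ± 321 on the p190B arrays (SD, n = 6 per genotype), and 0.11 (SE 0.11) for 1426545_at.

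The tested Tnrc6c probe sets share a design sequence and gave 0.04 (SE 0.09) for 1424645_at and 0.07 (SE 0.08) for 1460363_at. The latter averaged 1275 ± 131 on the control and 1337 ± 116 on the p190B arrays (SD, n = 6 per genotype), with overlapping ranges. Another Tnrc6c probe set, 1440997_at, was dim and lay below the filter. It ran from 19.0 to 57.0 in control and, on 5 p190B arrays, from 69.8 to 120.8, while p190B replicate 6 stood at 8.6. MAS5 values at this level are noisy, and this probe set was not tested.

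The Argonautes hold the mature microRNA and pair it with the target. Ago2, the Argonaute with slicer activity in mammals, was read by 4 probe sets that gave 0.01 (SE 0.08), 0.09 (SE 0.10), 0.08 (SE 0.14) and 0.01 (SE 0.09). Of these, 1455389_s_at averaged 4394 ± 355 on the control and 4424 ± 460 on the p190B arrays (SD, n = 6 per genotype), with ranges of 3832 to 4816 and 3731 to 4953. On it 1 p190B array lay above and 1 below all control arrays. All 4 Ago2 differences were below 0 without p190B replicates 1 and 3, from −0.07 to −0.01.

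Ago3, Ago1 and Ago4 are neighbours on 1 chromosome in the mouse annotation. Ago1 (1434331_at) ran from 1276 (median 1604) to 1876 in control and from 1508 (median 1787) to 2055 in p190B, a log2 difference of 0.16 (SE 0.10). Replicates 1, 3 and 5 of p190B lay above all control arrays, and the difference was 0.08 without replicates 1 and 3. Ago4 gave 0.04 (SE 0.14) for 1429779_at and 0.01 (SE 0.14) for 1453289_at, and the p190B values of both lay inside the control range. The second changed sign with quantile normalisation and with equal array medians, as did Ago2 1455389_s_at and 1455294_at with equal medians. The 3 tested Ago3 probe sets gave 0.07, 0.05 and −0.07 (SE 0.10 to 0.14), and 2 more lay below the filter, with values from 5.6 to 114.6 over all arrays.

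Among the processing factors, the tested probe sets of Dicer1 lay on both sides of 0, those of Drosha above it and those of Dgcr8 below it, and no difference between probe sets was tested. Dicer1, the RNase III enzyme that cuts the precursor hairpin, gave 0.23 (SE 0.11) on 1427941_at, with values from 709 (median 807) to 878 in control and from 743 (median 915) to 1184 in p190B. On it 4 of 6 p190B arrays lay above all control arrays, and replicates 1 and 3 were highest at 1114 and 1184. The other Dicer1 probe set, 1460571_at, gave −0.08 (SE 0.13), with 634 to 946 in control and 548 to 836 in p190B. The 1427941_at difference was 0.09 without p190B replicates 1 and 3, and 0.00 and −0.01 with the Actb and the Gapdh ratio as a covariate.

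Drosha, the nuclear RNase III enzyme, gave 0.07 (SE 0.10) on 1438505_s_at, with 2153 ± 350 on the control and 2239 ± 200.1 on the p190B arrays (SD, n = 6 per genotype). On 1428656_at it gave 0.11 (SE 0.15), and again p190B replicates 1 and 3 were highest, at 1012 and 1062 against 567 to 814 in control. Without those arrays this difference was −0.08. Another Drosha probe set, 1438440_at, lay below the filter, from 9.3 to 78.8 over all arrays.

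Dgcr8, the double-stranded RNA-binding partner of Drosha, gave −0.09 (SE 0.08) on 1435439_at and −0.02 (SE 0.10) on 1455311_at, which share a design sequence. The first averaged 523 ± 37.9 on the control and 489 ± 36.9 on the p190B arrays (SD, n = 6 per genotype). Of the 2 dim Dgcr8 probe sets, 1422981_at went the opposite way to most members on p190B replicates 1 and 3, which stood at 15.7 and 16.5 against 83.3 to 109.8 on the other p190B arrays. Control replicate 1 was at 32.0 and the other control arrays at 80.9 to 157.8. The other, 1446169_at, lay between 2.4 and 39.5 on all arrays.

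**Figure D2:**
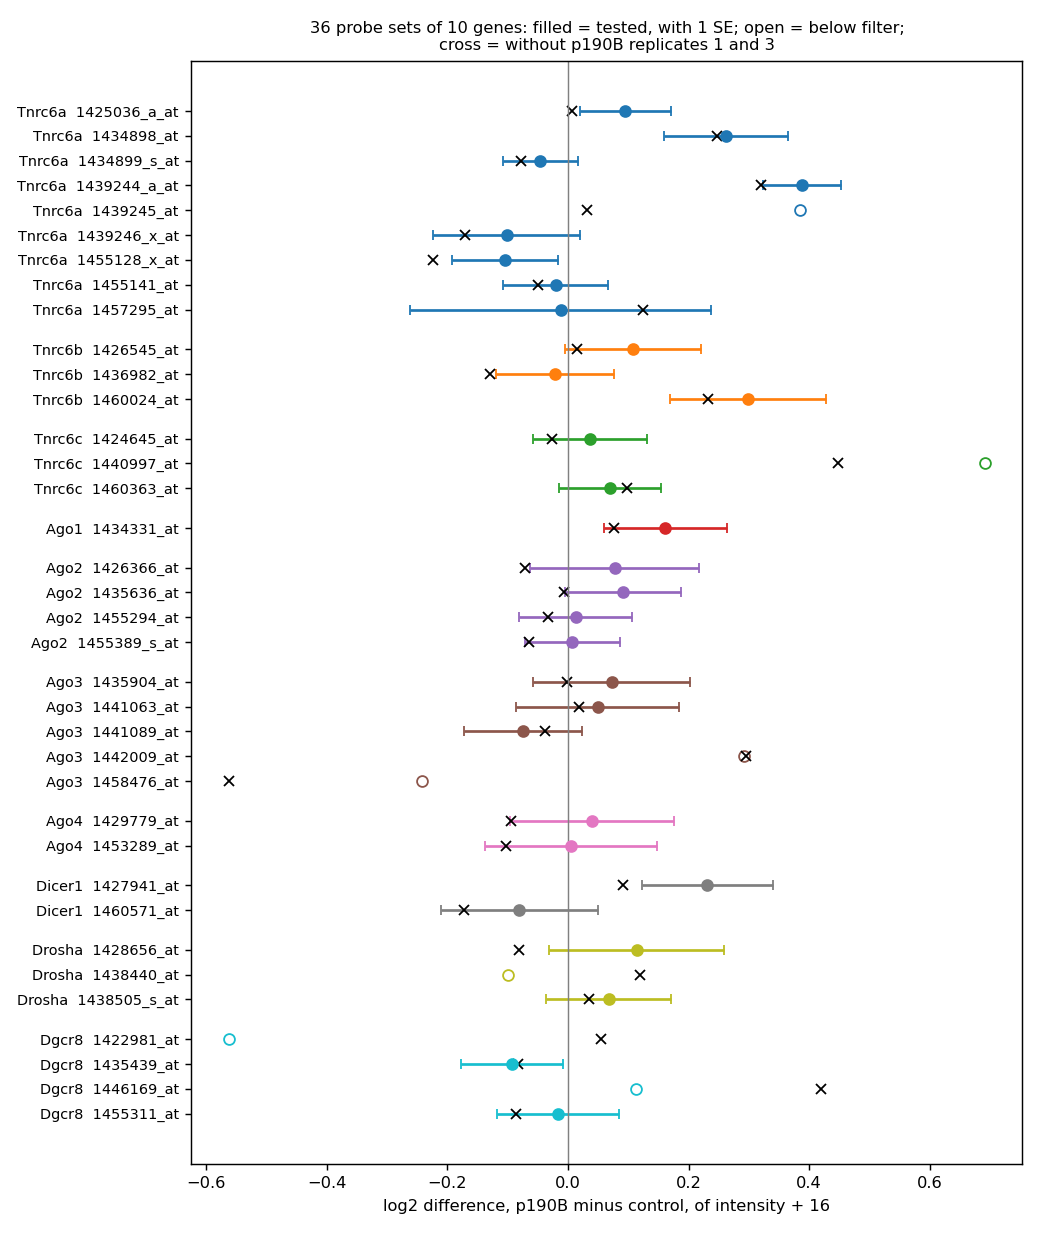
Log2 difference, p190B minus control, of intensity + 16 for all 36 probe sets, grouped by gene. Filled points were tested and have bars of 1 SE, open points lay below the filter, and crosses give the difference without p190B replicates 1 and 3. Tnrc6a 1439244_a_at stands at 0.39, or 0.32 without those arrays, and most other filled points lie near 0.

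Over the whole group, 29 of the 36 probe sets lay at or above the filter, an intensity of about 101, and 7 lay below it. Each of the 10 genes kept at least 1 tested probe set. Of these 29, 0 passed a limma adjusted p of 0.05, against 0.037% of all 27022 tested probe sets (0.0037% higher and 0.0333% lower in p190B). An unadjusted limma p under 0.05 was reached by 3 of 29, 1439244_a_at and 1434898_at of Tnrc6a and 1460024_at of Tnrc6b, against 9.32% over all probe sets. The groups did not overlap on 1 of 29, the probe set for which Tnrc6a was chosen, against 0.877% over all (0.322% with p190B above and 0.555% with p190B below). Since the members were chosen from this contrast, nothing is read from these shares.

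The differences were small for most of the group. The size was below 0.1 for 20 of 29, against 50.4% of all tested probe sets. The difference was above 0 for 19 of 29, against 54.9% over all, with a median of 0.04 beside 0.02 over all tested probe sets. Without p190B replicates 1 and 3 it was above 0 for 11 of 29, against 52.6% over all, and the median was −0.03 beside 0.01. The probe sets of 1 gene share their transcript, so these counts are not counts of independent measurements.

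Between arrays, the group was highest on 2 of the p190B arrays. The highest p190B value fell on replicate 1 or 3 for 20 of 29 probe sets, against 39.3% over all tested probe sets, and these were the 2 highest p190B arrays for 12 of 29, against 16.8%. This split was looked at after the values had been seen. The mean deviation of the 29 probe sets from their own means was 0.15 on p190B replicate 1 and 0.16 on replicate 3, and from −0.09 to 0.03 on the other p190B arrays. Over the control arrays it ran from −0.14 on replicate 4 to 0.09 on replicate 1. The same mean over all tested probe sets stayed between −0.03 and 0.05.

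Several members shared this pattern. On p190B replicate 3 the mean deviation was 0.35 for Drosha, 0.30 for Ago1 and Dicer1, 0.28 for Ago4 and 0.25 for Ago2, while it was −0.05 for Ago3 and −0.01 for Dgcr8. On replicate 1 it was 0.28 for Tnrc6b, 0.24 for Dicer1 and 0.23 for Ago4. These 2 arrays also had the highest Actb 3′ over 5′ ratios, and their lymphocyte marker scores of 6.41 and 7.33 were the lowest of the p190B group. The array's 18S ribosomal RNA control probe set read 4266.3 on replicate 3 and 725.0 on replicate 1, against 233.2 to 440.4 on the other 10 arrays. The part of RNA quality or of cell makeup in this pattern was not tested.

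**Figure D3:**
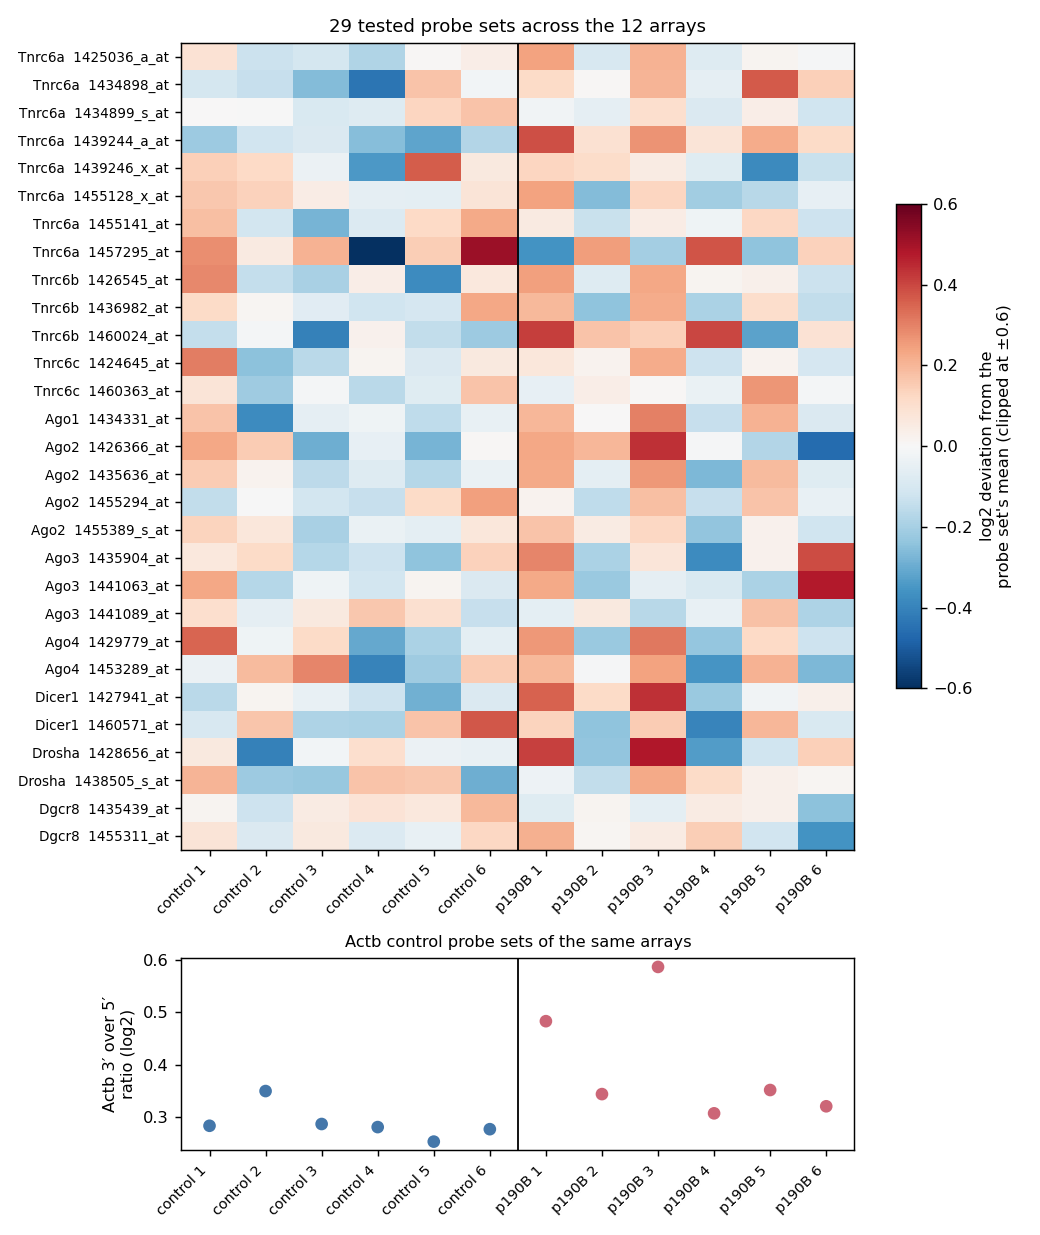
Log2 deviation of the 29 tested probe sets from their own mean (colour, clipped at ±0.6) on each of the 12 arrays, with the log2 Actb 3′ over 5′ ratio of the same arrays below. Red cells gather on p190B replicates 1 and 3, whose Actb ratios of 0.48 and 0.59 are also the highest.

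The ranking from which the group was picked did not use how the genes varied with the lymphocytes in the preparations. Earlier results of these data were known, however, when the genes were chosen. The score is the mean log2 level of the 14 measured T, NK and B cell markers, spread without a gap into separate clusters, and its slope was fitted with genotype in the model. Of the 29, 0 passed for the slope at a limma adjusted p of 0.05, against 3.62% of all tested probe sets, and 0.644% passed with a falling slope. At an unadjusted limma p under 0.05 there were 5 of 29, against 18.5% over all.

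The slopes of the group were mostly below 0, at 26 of 29 against 53.3% over all tested probe sets. The median was −0.05 log2 units per log2 unit of the score, beside −0.01 over all. As with the genotype counts, probe sets of 1 gene share their transcript, so these slopes are not independent measurements. The steepest falling slopes were −0.12 (SE 0.06) for Drosha 1428656_at, −0.12 (SE 0.05) for Dicer1 1460571_at and −0.11 (SE 0.05) for Tnrc6a 1439246_x_at. Limma adjusted p was 0.264 for this Drosha slope, 0.219 for Dicer1 and 0.205 for Tnrc6a. Tnrc6a 1439244_a_at had a slope of −0.04 (SE 0.03), which was 0.02 without p190B replicates 1 and 3.

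The count of slopes below 0 differed between subsets of the arrays. Over the control arrays alone 15 of 29 were below 0, against 53.5% over all tested probe sets, with a median of 0.00. Over the p190B arrays alone there were 25 of 29, against 52.4% over all, with a median of −0.07. Without p190B replicates 1 and 3 there were 17 of 29 below 0, against 54.2% over all, with a median of −0.01. Leaving out the 2 arrays farthest from the median score, control replicate 5 and p190B replicate 1, gave 24 of 29, against 52.5% over all. The median was then −0.08. With the Actb ratio as a covariate there were 19 of 29, against 53.7% over all, with a median of −0.02. With the Gapdh ratio there were 22 of 29, against 54.4%, with a median of −0.05. Tnrc6a 1455128_x_at passed for a falling slope without control replicate 5, and Drosha 1428656_at passed over the p190B arrays alone, at −0.23. Of all 27022 tested probe sets, 2032 passed in the first of these fits and 746 in the second. No other single array left out gave a member that passed.

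**Figure D4:**
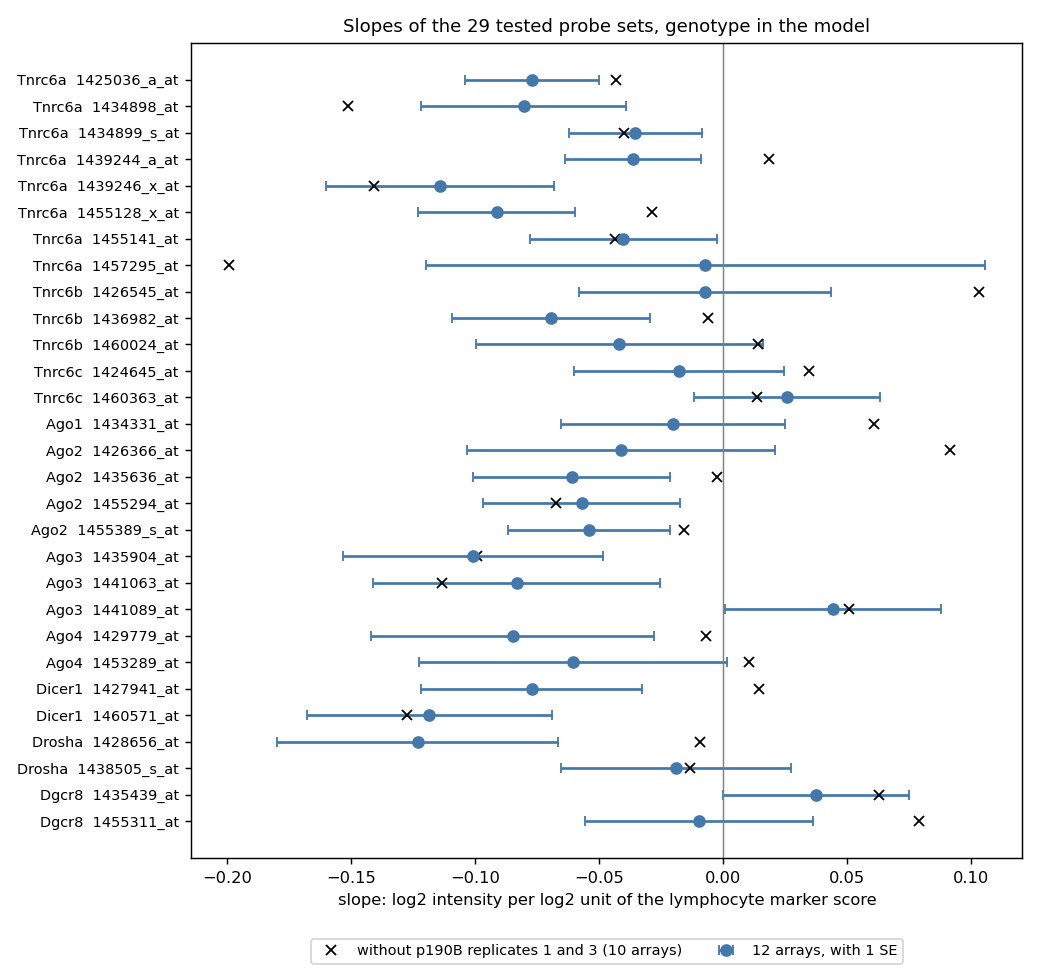
Slope of log2 intensity on the lymphocyte marker score for the 29 tested probe sets, with genotype in the model. Circles are the fit to 12 arrays with bars of 1 SE and crosses the fit without p190B replicates 1 and 3. Of the circles 26 lie below 0, and of the crosses 17.

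Likeness to Tnrc6a 1439244_a_at was taken across the 12 arrays, after each genotype's mean was subtracted. The 8 most alike probe sets of other genes were all outside the group. The highest Pearson r was 0.94 for Osbpl5, a lipid transfer protein, and for Reps2, an endocytic adaptor. Next were Arhgef12, a guanine nucleotide exchange factor, and Foxn3, a forkhead repressor, at 0.92 each. Plekha5 followed at 0.91, and Ankhd1, the Toll-like receptor adaptor Myd88 and the phospholipase Pld2 at 0.90 each. The arrays share their RNA quality and cell makeup across all genes, so r is a description over 12 arrays. These were the top 8 among the tested probe sets with 1 symbol, with those of Tnrc6a left out by rule.

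The members lay further down. By the same measure r was 0.81 for Ago4 1453289_at, at percentile 99.3 of all tested probe sets, and 0.79 for Tnrc6a 1455128_x_at, at percentile 99.0. It was 0.77 for Dicer1 1427941_at, 0.72 for Ago4 1429779_at and 0.71 for Tnrc6b 1436982_at, at percentiles 98.5, 97.1 and 96.6. It was −0.35 for Drosha 1438505_s_at and −0.02 for Tnrc6a 1455141_at, at percentiles 24.0 and 47.0. Probe sets of Tnrc6a thus ranged from 0.79 down to −0.17, the value of 1457295_at.

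The genotype comparison of the other genes of the pathway was read in the same fit, from 3 lists with 86 genes. Here a gene stands for the brightest of its probe sets with 1 symbol, 81 genes were measured and 78 lay above the filter. Of these 78, 0 passed a limma adjusted p of 0.05 in either direction, against 0.037% of all 27022 tested probe sets. At so low a share over all, a count of 0 says nothing particular about these genes. The smallest limma adjusted p was 0.155, and 0 of the 182 tested probe sets of the listed genes passed. An unadjusted limma p under 0.05 was reached by 5 with higher and 5 with lower signal in p190B, together 10 of 78 against 9.32% over all tested probe sets. The median difference was 0.03 beside 0.02 over all.

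In microRNA processing and turnover, 22 genes were tested with a median difference of 0.03 and a range of −0.27 to 0.27. Ddx5 and Ddx17, RNA helicases of the Drosha complex, gave −0.02 (SE 0.05) and −0.15 (SE 0.06), and Ran, the GTPase that drives nuclear export, gave 0.03 (SE 0.06). Hnrnpa1, an RNA-binding protein that can bind primary microRNA hairpins, averaged 6367 ± 397 on the p190B and 7712 ± 580 on the control arrays (SD, n = 6 per genotype), a log2 difference of −0.27 (SE 0.06) with a limma adjusted p of 0.155. Hnrnpa1 was named after its value was seen.

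Among Argonaute loading factors and partners, 16 genes were tested with a median of −0.02 and a range of −0.11 to 0.29. The chaperones Hspa8 and Hsp90aa1, which open Argonaute for loading, gave −0.03 (SE 0.06) and −0.11 (SE 0.04), and Eif6, a ribosome assembly factor, gave −0.02 (SE 0.06). Hsp90aa1 averaged 29515 ± 1519 on the p190B and 31905 ± 1342 on the control arrays (SD, n = 6 per genotype), with a limma adjusted p of 0.457.

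Among deadenylation, decapping and repression factors, which act downstream of GW182 proteins, 40 genes were tested with a median of 0.04 and a range of −0.28 to 0.22. Pabpc1, the poly(A)-binding protein, gave 0.04 (SE 0.04), the helicase Eif4a2 −0.08 (SE 0.06) and Paip2, which binds poly(A)-binding protein, 0.01 (SE 0.04). Tob1, an adaptor between poly(A)-binding protein and the deadenylase, gave −0.28 (SE 0.06) and Cnot10, a subunit of the CCR4-NOT deadenylase, 0.19 (SE 0.06). Both were named after their values were seen and did not pass, with limma adjusted p of 0.155 and 0.36.

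**Figure D5:**
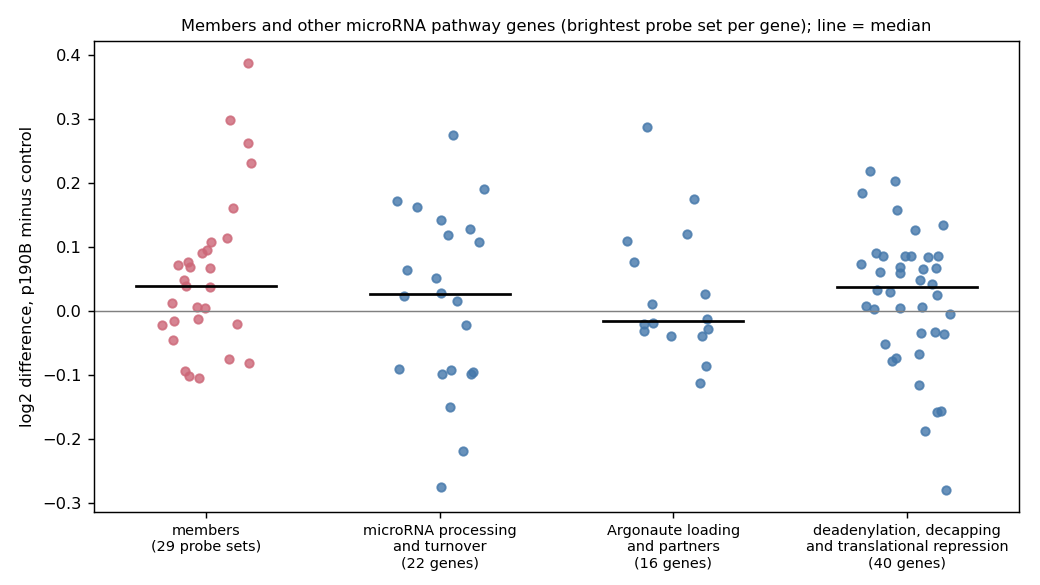
Log2 difference, p190B minus control, for the 29 tested probe sets of the 10 genes and for the other pathway genes in 3 lists, each by the brightest of its probe sets. Points are probe sets or genes and lines are medians, which lie between −0.02 and 0.04. The highest point, at 0.39, is Tnrc6a 1439244_a_at.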

How the data were processed

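Per the labels' protocols, biotin-labelled cRNA of each sample was hybridised to its own Affymetrix array in 1 colour. The deposited intensities are linear, 1 per probe set and array, and the submitters' processing notes name MAS5. Its version and target value were not given in the sources used. The 2% trimmed mean was 1000.0 on every array and the medians ran from 187.6 to 211.5, so scaling was per array and dim values stay noisy. Precision is limited by having 6 arrays per group. The p-values set a difference or slope against the spread between these samples only, and limma moderates that spread over all tested probe sets.

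Values were used as log2(value + 16), which understates changes of dim genes. Of 45037 probe sets other than array controls, 34945 had 1 symbol, 932 had several and the rest were unnamed here. No symbol changed through a RefSeq gene table (GRCm38.p6). Probe sets with a mean log2 value at or above the 40th percentile (101 units) were tested, 27022 in all, by the two-sided test of limma 3.58.1 (R 4.3.3; lmFit, then eBayes with trend), adjusted over them by Benjamini-Hochberg, with a threshold of 0.05. The labels give no batch.

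The members and lists were chosen with earlier results of these data known. Named are all member probe sets, the 3 brightest genes of each pathway list, and the 8 probe sets of other genes most like Tnrc6a 1439244_a_at. Hnrnpa1, Tob1 and Cnot10 were added after their genotype values were seen. Alternatives were pseudocounts of 1 and 64, other filters, normalisations, variance models, array weights, the replicate block, covariates and arrays left out. Figures used matplotlib 3.10.9 in Python 3.11.15. Probe sequences were not used here.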

Additional observations from a re-analysis of the deposited data

Results flagged for a closer look

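In 80 groups of 6 arrays, made from the 36 probe sets and 4 array measures, 7 held an array far from the other 5, and chance gives about 1 in 20. Among tested probe sets, Tnrc6a 1457295_at stood at 48.4 on control replicate 4, below the 133.9 to 190.3 of its group. Tnrc6c 1460363_at was 1566.4 on p190B replicate 5 against 1256.2 to 1338.9, and Drosha 1428656_at was 567.1 on control replicate 2 against 732.9 to 813.7. Among dim probe sets, Tnrc6c 1440997_at was 8.6 on p190B replicate 6 against 69.8 to 120.8, and Drosha 1438440_at was 78.8 on p190B replicate 2 against 9.3 to 21.0. The log2 Actb 3′ over 5′ ratio stood at 0.35 on control replicate 2, above the 0.25 to 0.29 of its group. The 18S ribosomal RNA control probe set read 4266.3 on p190B replicate 3, above the 329.9 to 725.0 of its group.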

How the results depend on the processing

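Between genotypes, 0 members passed in the reported fit. The count was 1, in each case Tnrc6a 1439244_a_at, with quantile normalisation, a filter at the 60th percentile, array weights or the lymphocyte score as a covariate, and 0 in each fit that left out 1 array. The limma adjusted p of that probe set was 0.0592 and ran from 0.0319 to 0.718 over 26 alternatives. The count over all probe sets, 10, was 5 with no filter, 17 with the 60th percentile, 28 with quantile normalisation, 4 with equal medians, 3 without trend, 19 with array weights, 24 with the lymphocyte score, 1 with the Actb ratio, 0 with the Gapdh ratio (1803 at an unadjusted limma p under 0.05), 5 without p190B replicates 1 and 3, and 4 to 9 without any single array. Other pathway genes gave 0 throughout, including with every probe set of each gene. For the lymphocyte slope, 0 members passed, 1 with array weights and 1 over the p190B arrays alone, and 0 to 1 without any single array. Over all probe sets 979 passed. The count was 608 with the 60th percentile, 1871 with array weights, 274 over control arrays alone and 746 over p190B arrays alone. It was 570 with the Actb ratio, 528 when p190B replicates 1 and 3 were left out, and 687 to 2032 without any single array. The cause of these changes was not tested. Replicate numbers are shared between genotypes, and the deviations of same-numbered arrays correlated from −0.29 to 0.41. The labels state no pairing, and these values cannot decide whether same-numbered arrays were prepared together. With the replicate block the genotype count was 0 for members and 0 over all probe sets (2287 at an unadjusted limma p under 0.05), and the slope count was 462 over all and 0 for members. Of 936 member differences recomputed, 925 moved by less than the SD within groups. This count does not measure stability. The filters, variance models and replicate block leave the difference itself unchanged, and that SD is wider than most of the differences. The sign changed in 12 of 26 alternatives for Tnrc6a 1457295_at and for Ago4 1453289_at, and in 0 for Tnrc6a 1439244_a_at. No signal over background is given for these arrays, so absence of a transcript cannot be read from a dim probe set.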
